A study of Mus musculus with 2 samples.

Results

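The genes described here are 2 neurexin genes, Nrxn2 and Nrxn3, and 6 contactin-associated protein genes, Cntnap1, Cntnap2, Cntnap4, Cntnap5a, Cntnap5b and Cntnap5c. They were chosen by name, and every H3K9me2 peak that overlapped a gene body extended by 2 kb was taken. This gave 8 of 21523 protein-coding genes. They held 19 of the 6253 peaks of the transgenic library and 3 of the 743 peaks of the wild-type library.

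ChIP-seq, chromatin immunoprecipitation followed by sequencing, located H3K9me2 (dimethylation of lysine 9 on histone H3) in cortex of C57BL/6 embryos at embryonic day 15.5. One library came from TBC1D3-transgenic embryos and 1 from wildtype embryos, so there was no replicate of either genotype. The series title links TBC1D3, a hominoid gene carried as a transgene, with the H3K9 methyltransferase G9a. The promoter that drives the transgene and the number of embryos behind a library are not given in the sources used here. Peak lists carry no expression, so the tissue label could not be checked against marker genes. Depth was 20697113 ChIP tags in the transgenic library and 26735120 in the wild-type library. The median peak of each list rested on 6 fragments, and the lowest listed q was 0.0673 in the transgenic list and 0.136 in the wild-type list. All differences below describe these libraries, and their intervals cover counting error only.

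Neurexins are presynaptic adhesion proteins that bind neuroligins, LRRTM proteins and cerebellins across the synaptic cleft. Their genes are long and use alternative promoters, which yield long alpha and short beta forms. Contactin-associated proteins resemble neurexins in their extracellular domains and sit on axons and synapses, several of them in complexes with contactins. H3K9me2 is a repressive mark that typically covers broad stretches of silent chromatin, whereas the deposited lists hold short peaks.

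No peak of either library lay on an annotated promoter of these genes, among those with a promoter sequence. RefSeq promoter windows (GRCm38.p6, 250 bases before to 50 after a start) were matched for 3 of the 8 genes, with 6 windows in all. At 300 bases each, these are too short to expect a peak at autosomal densities of 2.53 transgenic and 0.309 wild-type peaks per Mb. The absence therefore says nothing particular about these windows. The closest peak to any of them was a wild-type peak 13.7 kb from the Cntnap5b window. The closest transgenic peak lay 28.5 kb from the window of an internal Nrxn3 start. Over all genes, 0.320% of transgenic peaks and 0.269% of wild-type peaks lay on any of the 32851 promoter windows. Such windows cover only a small part of the genome, so these shares do not show that peaks avoid promoters. The sequences before the starts nearest to peaks are shown for Nrxn3 and Cntnap5b, with the first start of Cntnap2 as the start of the longest member. CpG pairs, the sites of DNA methylation, are in capitals. All lie on the plus strand. The Nrxn3 stretch is chr12:89812233-89812482, the Cntnap5b stretch, up to the annotated gene start, is chr1:99772151-99772245, and the Cntnap2 stretch is chr6:45059811-45060060.
Nrxn3 internal start: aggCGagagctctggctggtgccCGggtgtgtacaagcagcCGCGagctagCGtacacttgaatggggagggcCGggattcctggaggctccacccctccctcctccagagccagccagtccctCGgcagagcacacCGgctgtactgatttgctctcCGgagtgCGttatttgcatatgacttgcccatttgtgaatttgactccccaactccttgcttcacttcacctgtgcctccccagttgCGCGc
Cntnap5b: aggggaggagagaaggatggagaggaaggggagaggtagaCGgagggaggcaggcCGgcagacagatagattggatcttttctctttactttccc
Cntnap2 first start: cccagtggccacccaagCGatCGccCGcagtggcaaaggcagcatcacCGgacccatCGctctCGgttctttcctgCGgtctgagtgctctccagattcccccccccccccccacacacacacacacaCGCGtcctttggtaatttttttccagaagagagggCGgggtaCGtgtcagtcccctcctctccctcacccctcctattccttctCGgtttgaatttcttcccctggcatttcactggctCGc

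The full window of this Nrxn3 start held 16 CpG pairs, and 33.0% of all 32851 promoter windows held as many. CG reads the same on both strands, and 94.6% of all windows held at least 1. The windows of Cntnap5b and of the first Cntnap2 start held 14 each, reached by 36.3% of all windows. The other starts were poorer in CpG, with 2 and 6 in the other Nrxn3 windows and 3 in the other Cntnap2 window, against a median of 7 over all windows. Transgenic peaks lay 118 kb from the first Cntnap2 window and 132 kb from the Cntnap5b window.

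All peaks fell in the longer genes of the group, and the shortest, Nrxn2 and Cntnap1, held none in either library. In the transgenic library 6 of the 8 genes held a peak (75%, exact binomial 95% interval 34.9 to 96.8), namely Nrxn3, Cntnap2, Cntnap4, Cntnap5a, Cntnap5b and Cntnap5c. In the wild-type library 2 of 8 did (25%, interval 3.19 to 65.1), namely Nrxn3 and Cntnap5b. Among all 21523 coding genes, 5.69% held a transgenic peak and 0.911% a wild-type peak. These shares differed with gene length. Of the 227 coding genes of at least 500 kb, 84.6% held a transgenic peak and 24.2% a wild-type peak. The 5 members of that length (Nrxn3, Cntnap2, Cntnap5a, Cntnap5b and Cntnap5c) all held a transgenic peak, and 2 of them a wild-type peak. Of the 3 shorter members, 1 (Cntnap4) held a transgenic peak and 0 a wild-type peak, beside 4.85% and 0.662% of all coding genes under 500 kb. Lengths under 500 kb were not matched here. At 313 kb, Cntnap4 would hold 0.873 transgenic peaks at the density of its chromosome, so its 1 peak does not set it apart.

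**Figure D1:**
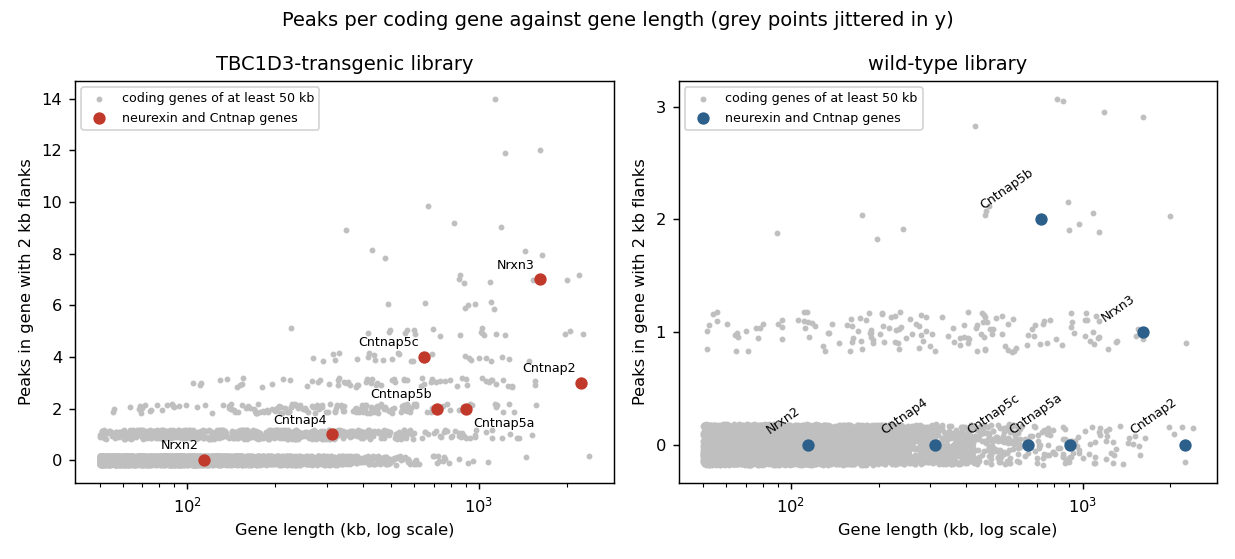
Peaks per coding gene (y, body with 2 kb flanks) against gene length (x, kb, log scale) for coding genes of at least 50 kb, with the transgenic library left and the wild-type library right. Grey points are all such genes, jittered in y, and coloured points are the members, of which Cntnap1 is too short to appear. Nrxn3 with 7 transgenic peaks and Cntnap5b with 2 wild-type peaks are the highest members.

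The summed density was close to that of the chromosomes. The 8 extended genes cover 6.60 Mb and held 2.88 transgenic peaks per Mb (exact Poisson 95% interval 1.73 to 4.50) and 0.455 wild-type peaks per Mb (0.0938 to 1.33). The mean densities of their own chromosomes give 16.9 transgenic peaks, so the 19 observed are 1.12 times that number (0.675 to 1.75). For the wild-type library they give 1.74 peaks, and the 3 observed are 1.72 times that (0.355 to 5.04). Coding genes as a whole had a lower peak density than the chromosomes they lie on. Set against the coding gene density of the same chromosomes, the members held 1.68 times (1.01 to 2.63) the 11.3 transgenic peaks and 2.65 times (0.546 to 7.74) the 1.13 wild-type peaks it gives. Long coding genes had a higher density again. At the density of autosomal coding genes of at least 500 kb, 3.09 transgenic and 0.387 wild-type peaks per Mb, the members would hold 20.4 and 2.55. The observed numbers are 0.932 times (0.561 to 1.46) and 1.18 times (0.242 to 3.43) these. Of these 6 intervals, only that of the transgenic peaks against the coding gene density lies above 1, and by little.

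The transgenic list is longer than the wild-type list throughout the genome, and also in these genes. They held 6.33 transgenic peaks per wild-type peak (exact binomial 95% interval 1.86 to 33.4), where the whole lists give 8.42 (7.80 to 9.09). The members' interval spans the value of the whole lists. The calls differed in fragment extension, 111 bp in the transgenic library and 57 bp in the wild-type library, and the genotype cannot be told apart from the library and its call.

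**Figure D2:**
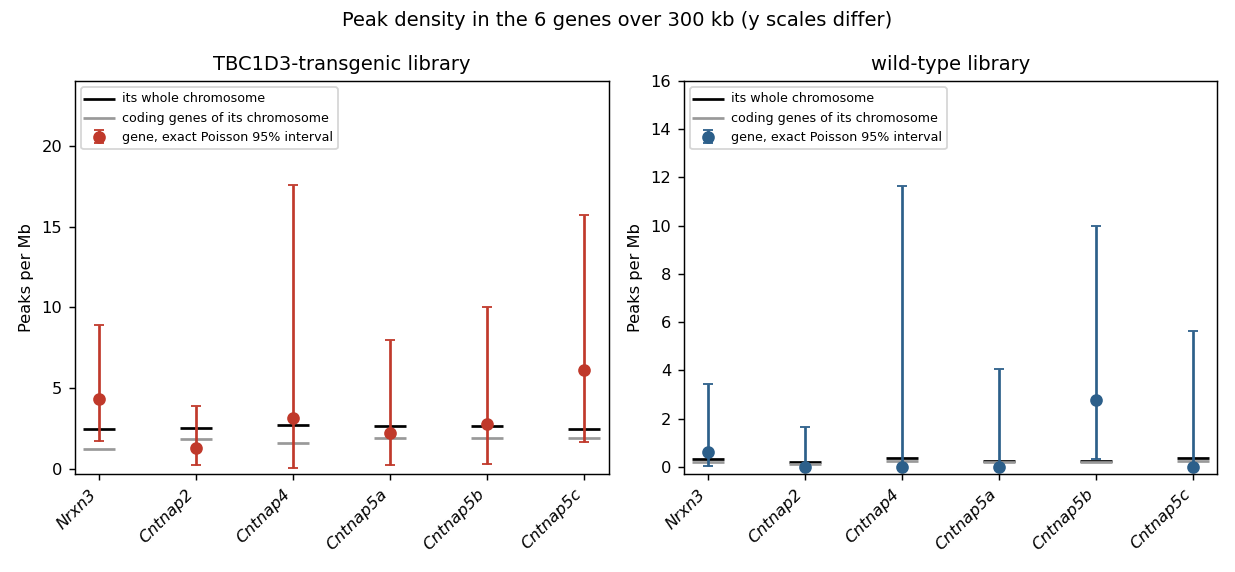
Peaks per Mb (y) in the 6 genes over 300 kb, with the transgenic library left and the wild-type library right, on different y scales. Points are the genes with exact Poisson 95% intervals, black bars the mean of the gene's chromosome and grey bars the coding genes of that chromosome. The intervals of all transgenic points include the black bar, and in the wild-type library that of Cntnap5b does not.

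Nrxn3, one of the neurexins that organise transmitter release sites, was the member with most transgenic peaks in the full list. With −log10 p of at least 5 it held 2, as did Cntnap5a, and in the transgenic list shortened to 743 peaks it held 0 and Cntnap5a 1. The gene lies on chromosome 12 at 88722701 to 90334935 (GRCm38) and spans 1612 kb, the 9th longest coding gene. It held 7 peaks in the transgenic library (interval 2.81 to 14.4) and 1 in the wild-type library (0.0253 to 5.57). The mean density of chromosome 12 gives 4.03 transgenic and 0.497 wild-type peaks, and both intervals include these. Of all coding genes, 19 held 7 or more transgenic peaks, and 16 of those were at least 500 kb long. The 1 Mb on either side of Nrxn3 held 8 transgenic peaks, or 4 per Mb (1.73 to 7.88), near the 4.33 per Mb inside the gene. Wild-type peaks there numbered 3, or 1.5 per Mb (0.309 to 4.38), beside 0.619 per Mb inside. The transgenic density was therefore not particular to the gene body.

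Most transgenic peaks of Nrxn3 lay on the side of its midpoint where the first starts lie. Of the 7, 6 had summits from 118 kb to 720 kb from the lower end. The last lay at 1119 kb, downstream of the internal start shown above, and the 496 kb from there to the end of the 3′ flank held none. The closest spacings were 12.5 kb between the peaks at 118 and 130 kb and 11.2 kb between those at 539 and 551 kb. The strongest Nrxn3 peak by p was the one nearest the internal start, at chromosome 12, 89841082 to 89841259, with 8 fragments, a fold of 4.41 and a q of 0.0742. The weakest, at 89442200 to 89442310, had 5 fragments, a fold of 3.07 and a q of 0.319. The wild-type peak lay at 89038883 to 89038939 with 6 fragments, a fold of 4.11 and a q of 1. Its nearest transgenic peak was 49.96 kb away, so the libraries shared the gene but no position within it. With so few peaks in a gene this long, the lack of a shared position does not set Nrxn3 apart.

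Nrxn2, the other neurexin, lies on chromosome 19 at 6418756 to 6533217, spans 114 kb and held 0 peaks in the transgenic library and 0 in the wild-type library. Chromosome density gives 0.291 transgenic and 0.0345 wild-type peaks for a gene of that length, so 0 does not set it apart. Its surroundings were empty over a much longer stretch. The nearest transgenic peak was 2337 kb away and the nearest wild-type peak 4444 kb away. The transgenic peak-free stretch around it measured 5.37 Mb and held 195 coding genes. Among 6073 stretches between neighbouring transgenic peaks on autosomes, 6 were at least that long, itself included.

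Cntnap1 encodes the protein Caspr, which joins axon and myelin at the paranodes beside the node of Ranvier. At 16.1 kb on chromosome 11 (101174617 to 101190724) it is the shortest member, and it held 0 peaks in both libraries, where chromosome density gives 0.0463 transgenic and 0.00693 wild-type peaks. Like Nrxn2 it lies among many genes, with 82 other coding genes within 1 Mb, and no peak of either library was within 1 Mb. The nearest transgenic peak was 1086 kb away and the nearest wild-type peak 2115 kb away. Nrxn2, with 90 coding genes within 1 Mb, and Cntnap1 were the 2 members in gene-dense surroundings, and the other members had from 0 to 28.

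Cntnap2 encodes Caspr2, which gathers voltage-gated potassium channels beside the paranodes of myelinated axons. It is the longest member, with 2241 kb on chromosome 6 (45060061 to 47301393), and the 3rd longest coding gene. It held 3 transgenic peaks (0.619 to 8.77) and 0 wild-type peaks (0 to 3.69), where chromosome density gives 5.71 and 0.490. The density of 1.34 transgenic peaks per Mb was the lowest of the members that held a peak, although its interval (0.276 to 3.905) includes the 2.54 of chromosome 6. The 1 Mb on either side of Cntnap2 held 3 transgenic peaks, or 1.5 per Mb (0.309 to 4.38), so its surroundings were about as sparse. From 2 kb before the annotated start, 1079 kb passed without a transgenic peak. The peaks then lay at 46136613 to 46136723, 46626141 to 46626251 and 46672300 to 46672410. The first was the strongest, with 7 fragments, a fold of 3.92 and a q of 0.132. The second had 7 fragments and a fold of 3.82, and the third 5 fragments and a fold of 3.02, where the median fold of the list was 3.62.

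Cntnap4, which in mice acts at synapses of interneurons and dopamine neurons, spans 313 kb on chromosome 8 (112569798 to 112882707). It held 1 transgenic peak (0.0253 to 5.57) and 0 wild-type peaks (0 to 3.69), where chromosome density gives 0.873 and 0.120. The peak lay at 112657451 to 112657611 with 8 fragments, a fold of 4.29 and a q of 0.0873. The nearest wild-type peak to the gene lay outside it, 221 kb from its end. The 1 Mb on either side of Cntnap4 held 3 transgenic peaks, or 1.5 per Mb (0.309 to 4.38), and 2 wild-type peaks.

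**Figure D3:**
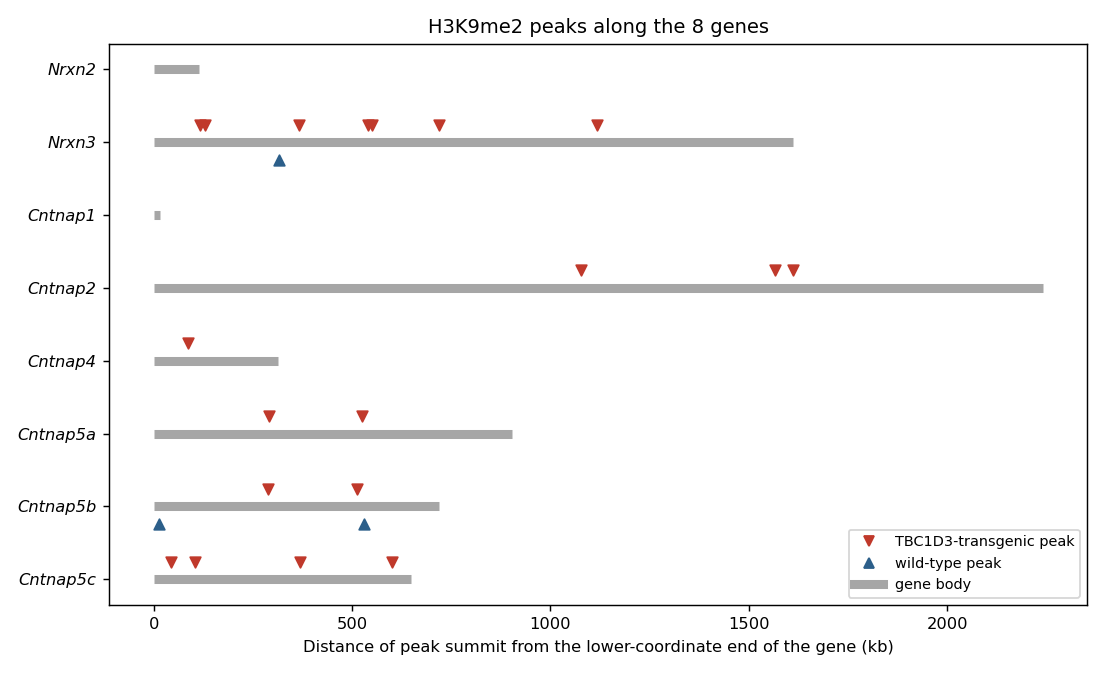
Positions of peak summits along the 8 genes, as distance from the lower-coordinate end (x, kb). Downward red triangles are transgenic peaks, upward blue triangles wild-type peaks, and grey bars the gene bodies. Of the 7 Nrxn3 transgenic peaks 6 lie in the first 720 kb, the first 1077 kb of Cntnap2 hold none, and no wild-type peak lies closer than 18.4 kb to a transgenic peak.

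Cntnap5a, Cntnap5b and Cntnap5c are mouse paralogues of one another and correspond to the single human gene CNTNAP5. Each held transgenic peaks, and Cntnap5b alone of the 3 was listed with wild-type peaks. Cntnap5a, on chromosome 1 at 115684737 to 116587323 (903 kb), held 2 transgenic peaks (0.242 to 7.22) and 0 wild-type peaks (0 to 3.69). Cntnap5b, also on chromosome 1 at 99772246 to 100490599 (718 kb), held 2 transgenic peaks and 2 wild-type peaks (0.242 to 7.22 each). Cntnap5c, on chromosome 17 at 57769074 to 58417953 (649 kb), held 4 transgenic peaks (1.09 to 10.2) and 0 wild-type peaks (0 to 3.69). The intervals of the 3 genes overlap in each library, so the counts do not separate them.

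Cntnap5a carried the strongest transgenic peak of the group. It lay at 115975546 to 115975657 with 8 fragments, a fold of 4.89 and a q of 0.0673, the lowest q in the list, and ranked 253rd of 6253 by p. The second peak, at 116209244 to 116209354, had 7 fragments, a fold of 4.19 and a q of 0.0927. The 2 peaks stand against 2.44 at chromosome density. No other coding gene lay within 1 Mb of Cntnap5a, and the 2 Mb around it held 2 transgenic and 0 wild-type peaks. The nearest wild-type peak was 8740 kb away. Cntnap5a sat in a stretch of 25.0 Mb without a wild-type peak, which held 52 coding genes and began at the second wild-type peak of Cntnap5b. It was the longest of the 723 stretches between neighbouring wild-type peaks on autosomes. The wild-type list has only 0.309 peaks per Mb of autosome, and whether a stretch this long is unusual was not tested.

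Cntnap5b was the member with most wild-type peaks. Its 2 wild-type peaks compare with 0.162 at the density of chromosome 1, a ratio of 12.4 (1.499 to 44.7), while its 2 transgenic peaks compare with 1.94, a ratio of 1.03 (0.125 to 3.72). Of all coding genes, 19 held 2 or more wild-type peaks, and 11 of those were at least 500 kb long. At the density of autosomal coding genes of that length, Cntnap5b would hold 0.279 wild-type peaks. The interval of its count (0.242 to 7.22) includes that number. Cntnap5b is the highest of 8 genes in this library, which the interval does not allow for. The first wild-type peak, at 99786177 to 99786233, had 7 fragments, a fold of 5.003 and a q of 1, and ranked 60th of 743 by p. It lay 14.0 kb into the gene and also inside the long noncoding RNA gene Gm51641, so it cannot be assigned to Cntnap5b alone. The second, at 100303171 to 100303253, had 5 fragments and a fold of 3.76.

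The transgenic peaks of Cntnap5b lay at 100060632 to 100060879, with 7 fragments and a fold of 4.24, and at 100284587 to 100284768, with 5 fragments and a fold of 3.26. The second of these overlapped the annotated gene Gm29667 and lay 18.4 kb from the second wild-type peak. That is the closest approach of the libraries in the 8 genes, and 0 of the 19 transgenic peaks lay within 10 kb of a wild-type peak. The wild-type list has only 0.309 peaks per Mb of autosome, so few would be that close anywhere. The share over the whole transgenic list was not computed, and the count does not set these genes apart. The 1 Mb on either side of Cntnap5b held 6 transgenic peaks, or 3 per Mb (1.10 to 6.53), near the 2.77 per Mb inside the gene, and 0 wild-type peaks.

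Cntnap5c had the highest transgenic density of the group in the full list, with 6.13 peaks per Mb (1.67 to 15.7) against 2.46 on chromosome 17. With −log10 p of at least 5 it held 1 peak, as did the shorter Cntnap4, and it was then not the densest member. Its 4 peaks compare with 1.61 at the density of chromosome 17, a ratio of 2.49 (0.679 to 6.38), and the interval includes 1. The 1 Mb on either side of Cntnap5c held 5 transgenic peaks, or 2.5 per Mb (0.812 to 5.83), an interval that overlaps that of the gene. Of all coding genes, 75 held 4 or more transgenic peaks, and 56 of those were at least 500 kb long. The strongest peak, at 57812657 to 57812767, had 7 fragments, a fold of 4.34 and a q of 0.0895. The peak at 58137152 to 58137262 had 7 fragments and a fold of 3.80, and the peak at 58368580 to 58368703 had 6 fragments and a fold of 3.60. The weakest, at 57873612 to 57873722, had 5 fragments, a fold of 3.02 and a q of 0.363. The peaks were spread over the gene, from 6.73% to 92.4% of its length.

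As single peaks, those in the members were like the rest of the lists. All 19 transgenic and all 3 wild-type peaks lay inside gene bodies and none in a flank. The transgenic ones rested on 5 to 8 fragments with a median of 7, and the wild-type ones on 5, 6 and 7. A support of 8 or more fragments was seen for 21.1% of the members' transgenic peaks and for 21.9% of the transgenic list. Of the members' wild-type peaks 0 reached it, against 13.7% of the wild-type list. The median fold was 3.82 among the members' transgenic peaks and 3.62 in that list, and 4.11 among the members' wild-type peaks and 3.904 in that list. Of the 19 transgenic peaks 12 were exactly as wide as the 111 bp extension, as were 46.6% of the list, and of the 3 wild-type peaks 2 were exactly 57 bp wide, as were 52.5% of that list. A q of 1 was listed for all 3 wild-type peaks, and the members' transgenic peaks had q values from 0.0673 to 0.363.

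**Figure D4:**
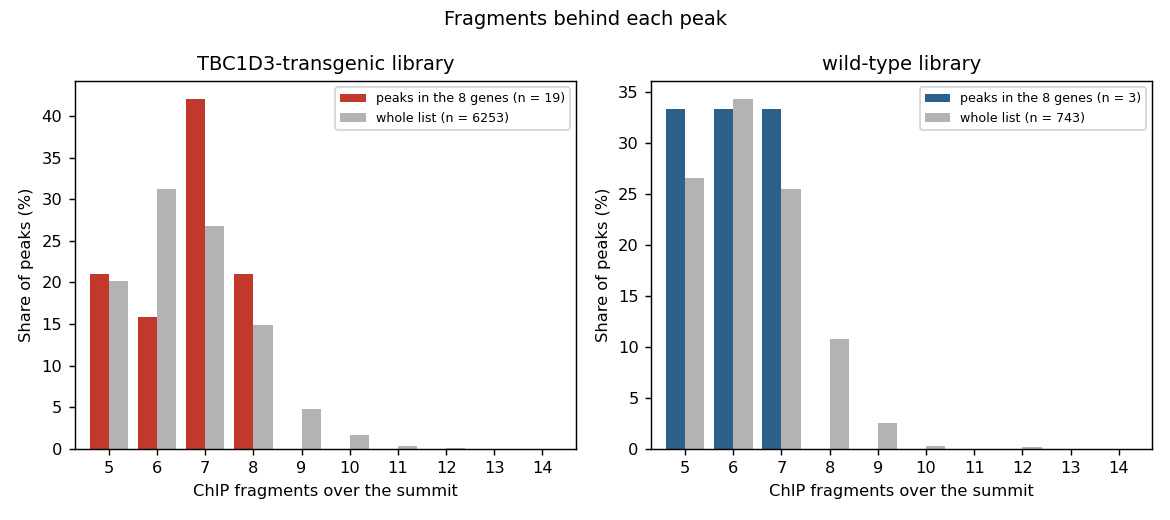
Share of peaks (y, %) by the number of ChIP fragments over the summit (x), for the members' peaks in colour and the whole list in grey, with the transgenic library left and the wild-type library right. One transgenic peak of the whole list with 22 fragments lies beyond the axis. The members' peaks hold 5 to 8 fragments in the transgenic library and 5 to 7 in the wild-type library.

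Of 43 genes whose proteins bind neurexins or contactin-associated proteins, or share their axonal complexes, 9 held a transgenic peak and 3 a wild-type peak (20.9% and 6.98%). The shares over all coding genes, 5.69% and 0.911%, are again lower, and the split by length is given beside them. Of the 6 partners of at least 500 kb, 5 held a transgenic peak and 2 a wild-type peak, beside 84.6% and 24.2% of all coding genes of that length. Of the 37 shorter partners 4 held a transgenic peak and 1 a wild-type peak (10.8% and 2.70%), beside 4.85% and 0.662% of shorter coding genes. Lengths under 500 kb were not matched in these shares. The shorter partners held 7 transgenic peaks and 1 wild-type peak, where chromosome density gives 9.67 and 1.05. Coding genes as a whole had a lower density than their chromosomes, and that lower base was not applied to partners. An excess in the shorter partners was therefore not tested. In sum the partners held 22 transgenic and 3 wild-type peaks, where chromosome density gives 23.2 and 2.48.

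Among the partners, contactins, the membrane-anchored companions of contactin-associated proteins, held most peaks. Cntn4 held 5 transgenic peaks and 1 wild-type peak, against 2.61 and 0.224 at chromosome density. Cntn1, the companion of Cntnap1 at the paranode, held 4 transgenic peaks against 0.771, Cntn5 held 4 against 3.32 and Cntn3 held 1 against 1.03, and these 3 held 0 wild-type peaks. Cntn2 and Cntn6 held none in either library. Together the 6 contactin genes held 14 transgenic peaks where chromosome density gives 8.79, and 1 wild-type peak where it gives 0.969. No intervals were computed for partners, and Cntn1 and the contactins stand out of 43 genes looked at. An excess in contactins was not tested.

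Of the ligands across the synapse, Nlgn1, a neuroligin of excitatory synapses, held 2 transgenic peaks against 2.45 at chromosome density. Of the LRRTM genes, Lrrtm3 held 1 against 0.421 and Lrrtm4 held 0 against 2.02, the only partner of at least 500 kb without a transgenic peak. The 4 LRRTM genes together held 1 against 2.56. The latrophilin gene Adgrl3 held 1 transgenic and 1 wild-type peak against 1.78 and 0.213. Nxph1, a secreted neurexin ligand, held 0 transgenic peaks and 1 wild-type peak of fold 5.003, against 0.776 and 0.0666. Of the cytoplasmic partners, Syt1, the calcium sensor of vesicle release, held 3 transgenic peaks against 1.31, and Epb41l3, which links contactin-associated proteins to the cytoskeleton, held 1 against 0.537. The other 6 cytoplasmic partners held 0, and the 8 together held 4 against 4.04. The 4 cerebellin genes and the 5 genes of the axonal complex, potassium channel genes Kcna1 and Kcna2 among them, held 0 in both libraries. Chromosome density gives 0.105 transgenic peaks for the cerebellin genes and 1.37 for the axonal complex, so these counts of 0 do not set them apart.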

How the data were processed

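Each library came as 1 peak list. The authors called peaks per library against its own input with MACS version 2.1.0.20150420 at a p cutoff of 0.001 and no shift model, per the file headers. The submitters' processing notes name BWA and mm10. Reads were extended to 111 bp in the transgenic library and 57 bp in the wild-type library, as the headers state. In the deposited lists the pileup signal counts extended fragments at the summit, after the larger of ChIP and input was scaled down. It was divided by that factor (1 and 0.951) to give fragments. The deposited fold is the ratio of pileup plus 1 to local background plus 1. Values of −log10 p and −log10 q were used as deposited, although the headers call q not calculated.

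Gene bodies came from RefSeq annotation of GRCm38.p6, which mm10 represents, without exons or introns. Genes starting below 3 Mb were left out. Of its genes, 49214 were used, and 21523 of them are protein-coding. A peak counted for a gene when at least 1 bp lay within the body extended by 2 kb. Chromosome density is the number of peaks over the length from 3 Mb to the last annotated gene or peak. Coding gene density is the number of peaks over the merged, extended coding genes. Counts have exact Poisson 95% intervals and shares exact (Clopper-Pearson) binomial ones. They cover counting error only, and no p was computed. Computation used Python 3.11.15, pandas 2.3.3 and SciPy 1.17.1, and the counting was tested on simulated peaks.

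The members, the partner list and the tests were chosen with earlier results of these data known. All members are named, as is every partner with a peak. The peaks named are those of highest and lowest p, or all of them where a gene held few. For genes with no peak the nearest peak is given. Alternatives were other flanks, midpoints, stronger peaks, a shortened transgenic list, merging and other density bases. The comparison with 1 Mb on either side and the split at 500 kb for partners were added after seeing the data. A planned comparison of proteins and the sequence under peaks were not analysed here.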

Additional observations from a re-analysis of the deposited data

How the results depend on the processing

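With 1 library per genotype no library could be left out, and depth and the p cutoff limit what the lists can show. No paired analysis was possible because each genotype has 1 library. Flanks of 0 and 10 kb, placing peaks by midpoint and merging within 1 kb left the 6 and 2 members with a peak, the 19 and 3 peaks, and the 9 and 3 partners as they were, and moved the ratios to chromosome density little. The values below come from shorter lists of stronger peaks, so list length and peak strength changed together and were not separated. Requiring −log10 p to reach 5 kept 2036 transgenic and 185 wild-type peaks in all. The members then held 7 transgenic peaks, and 1 wild-type peak in 1 member. Partners with a peak were then 4 and 1. At a fold of at least 5, which left 166 and 62 peaks, 0 transgenic peaks in 0 members remained, a ratio of 0, where 0.436 would be the number at chromosome density. The wild-type list kept 1 peak in 1 member, Cntnap5b, a ratio of 5.84, and partners were 0 and 1. With the transgenic list shortened to 743 peaks, 1 member, Cntnap5a, held 1 peak, a ratio of 0.505, and 0 partners did.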
